A study of Homo sapiens with 2 samples.

Results

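The zinc finger genes of human chromosome 19 that carry a ZNF number were examined in the established human kidney cancer line ACHN, with and without depletion of Kindlin-2. Of 18418 genes named by the array, 234 were members. A member had a transcript cluster (a set of probes summarised as 1 value) whose only platform symbol was ZNF plus a number, and a place on chromosome 19 in RefSeq. A letter after the number was allowed (13 members), and the brightest cluster stood for a gene with several. RefSeq lists 225 members as protein coding and 9 as transcribed pseudogenes or noncoding RNA. Another 248 ZNF genes lie on other chromosomes and 1074 other genes on chromosome 19.

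Most zinc finger proteins of chromosome 19 join a row of DNA-binding fingers to a KRAB domain. This domain binds the corepressor TRIM28, which brings in the histone methyltransferase SETDB1 and heterochromatin proteins, and many family members silence transposable elements in this way. The genes arose by repeated tandem duplication, so close relatives lie side by side on the chromosome and resemble each other in sequence. Such relatives can share probe sequence, and the values of near copies are therefore less certain than those of single genes.

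The study transfected ACHN cells, which its labels call a clear cell renal cell carcinoma line, with an shRNA against Kindlin-2 or with a control shRNA. Both cultures grew in G418, which selects transfected cells, and each supplied 1 array (n = 1), with no replicate and thus no p-value, error or test. All differences below are the Kindlin-2 shRNA array minus the control array on the log2 scale of the authors' RMA values. They describe these 2 arrays, and the effect of the shRNA and a difference between the cultures cannot be told apart. FERMT2, which encodes Kindlin-2, stood at 46.4% of its control level. Of 10 markers of renal epithelium and its tumours 8 were measured, and all of these lay at or above 8.23. Of these 8 markers 6 were below 0, with a median difference of -0.34, and PAX2, a transcription factor of kidney development, was 1.58-fold lower. The 5 endothelial and 4 leukocyte markers measured stayed at or below 6.23 on both arrays, and of 5 fibroblast markers COL1A1 was the brightest, at 7.45 and 7.28, and PDGFRB, a receptor of platelet-derived growth factor, was 1.71-fold lower.

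The ZNF genes of chromosome 19 were lower in the Kindlin-2 shRNA array as a group, by a small amount. Of 234 members 170 (72.6%) were below 0, 58 were above 0 and 6 had the same value on both arrays, whereas 52% of all genes were below 0. The median difference was -0.13 for the members and -0.01 for all genes. The median of the renal markers, at -0.34, lay further below 0 than that of the members, and its part in the result was not tested. In RNA of a whole culture, fewer cells with a transcript and less transcript per cell cannot be told apart. At least 1.5-fold lower were 17 members, or 7.26%, against a background of 3.81% of all genes. At least 1.5-fold higher was 1 member, or 0.427%, against 3.77% of all genes. Of the 17 members, 7 belonged to a single stretch of 8 neighbours described below. Without that stretch 10 of 226 members (4.42%) were 1.5-fold lower, a share near the 3.81% of all genes, while 71.7% were still below 0 and the median was -0.13. All genes are brighter, with a median level of 7.20 against 5.82 for the members. Among genes that are not ZNF genes, 1.17% were 1.5-fold lower at mean levels below 5 and 5.16% at 7 or more. The stretch was also picked for its low values. At least 2-fold lower were 2 members (0.855%, background 0.901%), and no member was 2-fold higher (background 1.01%).

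**Figure D1:**
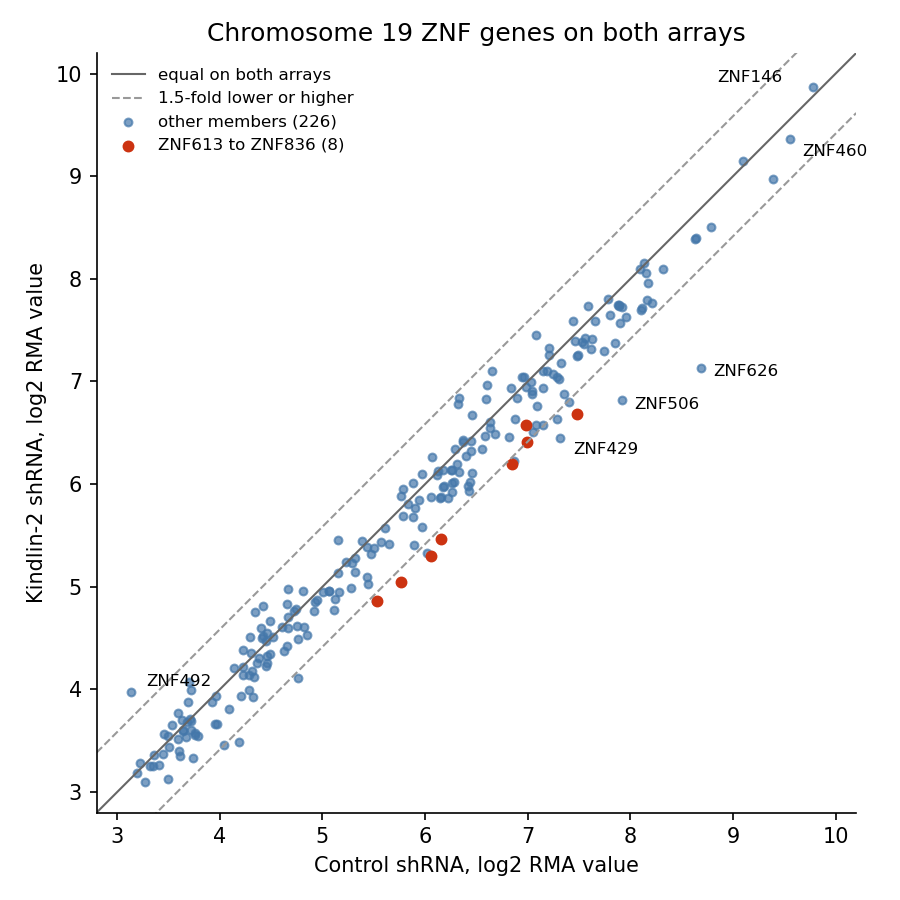
Each point is 1 of the 234 ZNF genes of chromosome 19, with its log2 RMA value on the control array (x axis) and on the Kindlin-2 shRNA array (y axis), 1 array each. Most points lie just below the line of equal values, ZNF626 and ZNF506 lie farthest below it, and ZNF492 alone lies above the upper 1.5-fold line.

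**Figure D2:**
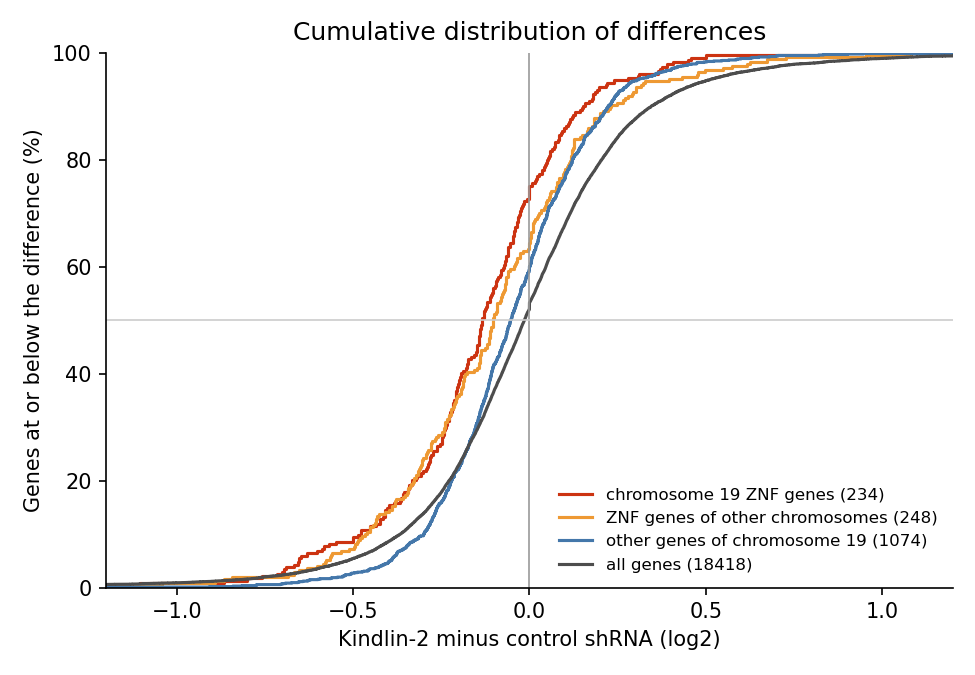
The share of genes (y axis, percent) at or below each log2 difference (x axis, Kindlin-2 shRNA minus control shRNA) is drawn for 4 sets of genes, with the far ends of the x axis left out. The curve of the 234 members crosses 0 at 75.2%, counting members with equal values. At the median and both quartiles it lies left of the curve of all genes.

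The members are faint on this array. Their median level was 5.73 in the Kindlin-2 shRNA array and 5.90 in the control array, below the median of 6.52 of all values in the table. Only 81 members had a mean level at or above that median, and the table carries no calls of presence, so a low value may be a low transcript level or background. RMA values compress differences near the background. The members' median was below that of genes that are not ZNF genes at each level. Among members with a mean below 5 the median difference was -0.07 (87 members), against -0.03 for genes that are not ZNF genes. It was -0.13 between 5 and 6 (37 members), -0.15 between 6 and 7 (56 members) and -0.19 at 7 or more (54 members). Genes that are not ZNF genes had medians of 0.01, 0.0028 and -0.02 in these classes. At 7 or more, 44 of 54 members (81.5%) were below 0, against 53.2% of genes that are not ZNF genes and 65.2% of ZNF genes of other chromosomes. The latter had medians of -0.09, -0.03, -0.11 and -0.11 from the faintest to the brightest class, so that below 5 they lay lower than the members and above 5 higher.

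**Figure D3:**
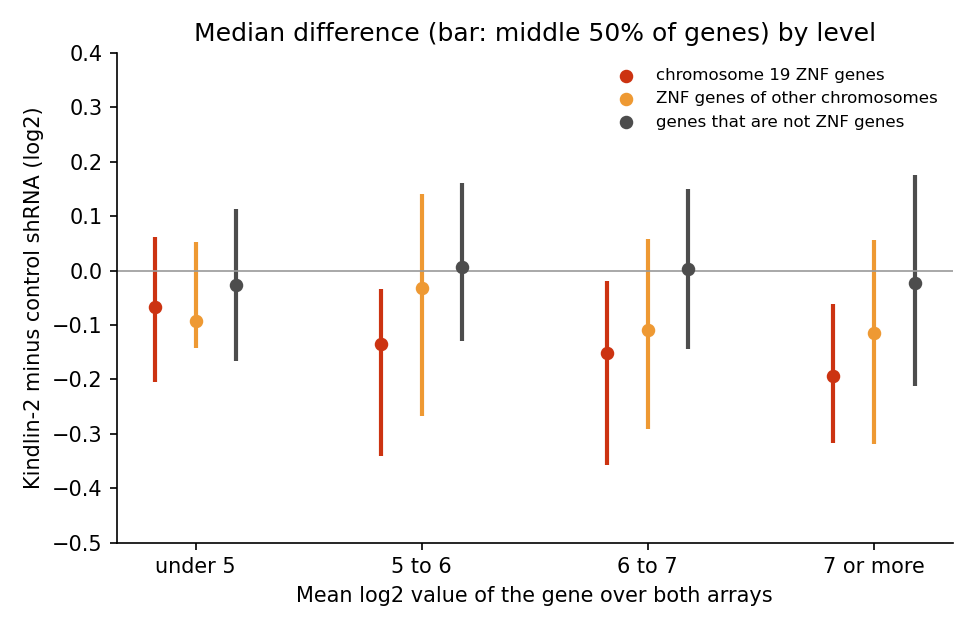
Points are median log2 differences (y axis, Kindlin-2 shRNA minus control shRNA) in 4 classes of mean log2 level (x axis), and bars span the genes between the lower and upper quartile. The median of the chromosome 19 ZNF genes lies below that of genes that are not ZNF genes in each class and moves from -0.07 in the faintest to -0.19 in the brightest.

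ZNF626 showed the largest difference. Its brightest cluster read 7.13 in the Kindlin-2 shRNA array and 8.69 in the control array, 2.93-fold lower. A second, faint cluster of the same gene read 4.60 and 4.51, a difference of 0.09, so its 2 clusters disagree. Neighbouring clusters tend to be numbered in gene order. By its number the bright cluster falls between those of ZNF506 and ZNF682. The faint one follows that of ZNF737, the member just before ZNF626 in gene order. Which gene the bright cluster reads was not tested. ZNF506 read 6.82 and 7.92, which is 2.15-fold lower, and has 1 cluster. ZNF429 read 6.45 and 7.32 and was 1.82-fold lower. These genes belong to the same large run of neighbours on chromosome 19. In the order of difference they were followed by ZNF616, ZNF841 and ZNF615, which belong to another. ZNF682 (3.48 and 4.18), ZNF420 (5.33 and 6.02), ZNF613 and ZNF432 completed the 10 largest decreases, with differences between -0.70 and -0.67. ZNF420 is known as a KRAB protein that restrains p53.

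Members were then set in the RefSeq gene order of GRCh38.p14. Neighbouring members with at most 5 other protein-coding genes between them formed a run, and 194 of the 234 members fell into 8 runs of at least 8 members. The number of members lower by 1.5-fold varied between the runs. The run from ZNF577 to ZNF331 (38 members) held 7, the run from ZNF101 to ZNF254 (34 members) 5, and the run from ZNF264 to ZNF446 (39 members) 3. The run from ZNF565 to ZNF573 held ZNF420 alone, and the other 4 runs held none. The last of the 17, ZNF302, read 4.86 and 5.52 and lay outside the runs.

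**Figure D4:**
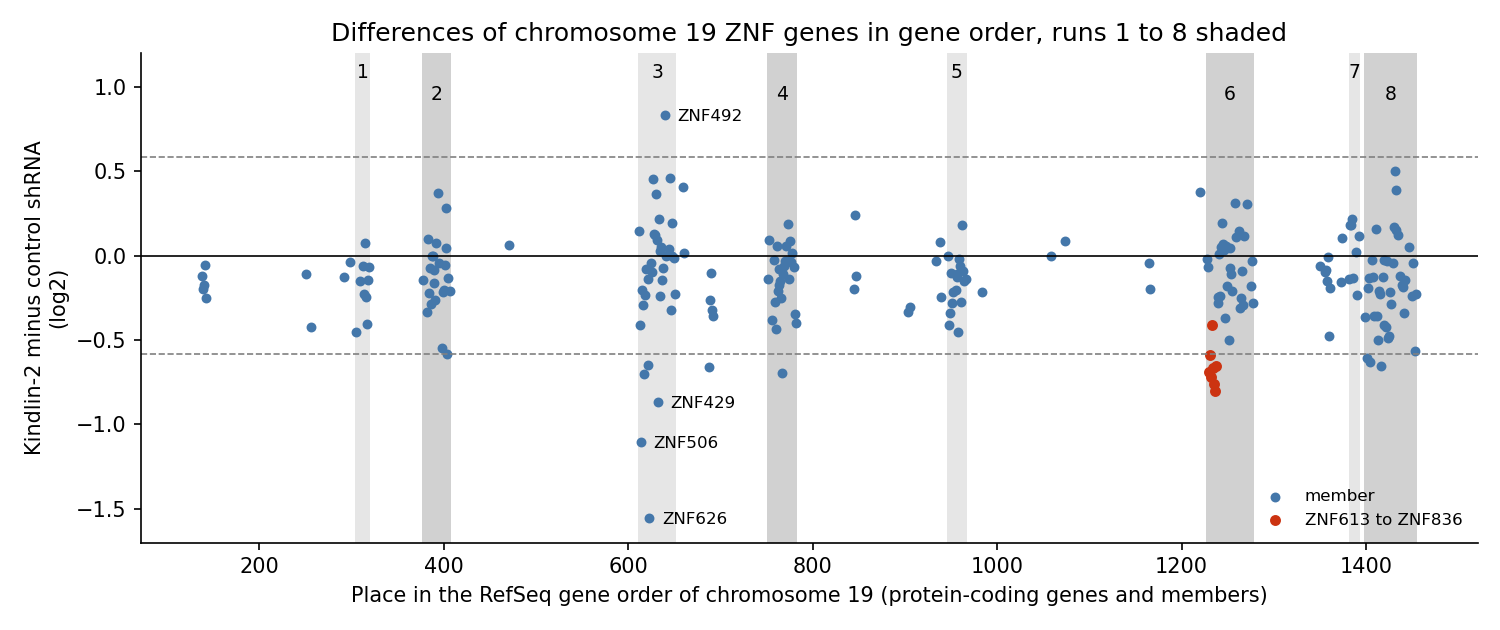
Log2 differences (y axis, Kindlin-2 shRNA minus control shRNA) of the 234 members are drawn in gene order along chromosome 19 (x axis, rank of the gene). The 8 shaded runs are numbered, dashed lines mark 1.5-fold, and the 8 neighbours from ZNF613 to ZNF836 sit together between -0.41 and -0.80.

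Within the run from ZNF577 to ZNF331 the 7 members at least 1.5-fold lower all lay in a stretch of 8 neighbours. ZNF613, ZNF350, ZNF615, ZNF614, ZNF432, ZNF841, ZNF616 and ZNF836 follow one another with no other protein-coding gene between them, and all 8 were lower in the Kindlin-2 shRNA array. ZNF616 read 6.68 and 7.48 (1.74-fold lower), ZNF841 5.30 and 6.06 (1.69-fold), ZNF615 5.05 and 5.76 (1.64-fold) and ZNF613 5.47 and 6.16 (1.61-fold). ZNF432 read 4.86 and 5.53 (1.59-fold lower) and ZNF836 6.20 and 6.85 (1.57-fold). ZNF350, also known as ZBRK1, a partner of BRCA1 in repression, read 6.406 and 6.995, a difference of -0.59. ZNF614 (6.57 and 6.99) was 1.33-fold lower and the only one of the 8 under 1.5-fold. ZNF616 has a second cluster that differed by -0.38, in the same direction and by less. The stretch was picked after its values were seen, so its median of -0.68 is a description.

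Genes on both sides differed by less. ZNF649 and ZNF577, just before ZNF613, differed by -0.07 and -0.02. The formyl peptide receptor genes FPR1, FPR2 and FPR3 before them differed by -0.03, 0.29 and 0.07. After ZNF836 comes PPP2R1A, the scaffold subunit of protein phosphatase 2A, which was bright on both arrays (10.86 and 10.93) and differed by -0.08. The next members, the brighter ZNF766 (7.02 and 7.30) and ZNF480 (8.40 and 8.64), differed by -0.28 and -0.24. The other 30 members of the run had a median of -0.07, with 18 below 0 and none past 1.5-fold in either direction. Over the 6 measured genes that are not ZNF genes within 8 gene places of the stretch, the median was 0.01, at a median level of 5.45.

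**Figure D5:**
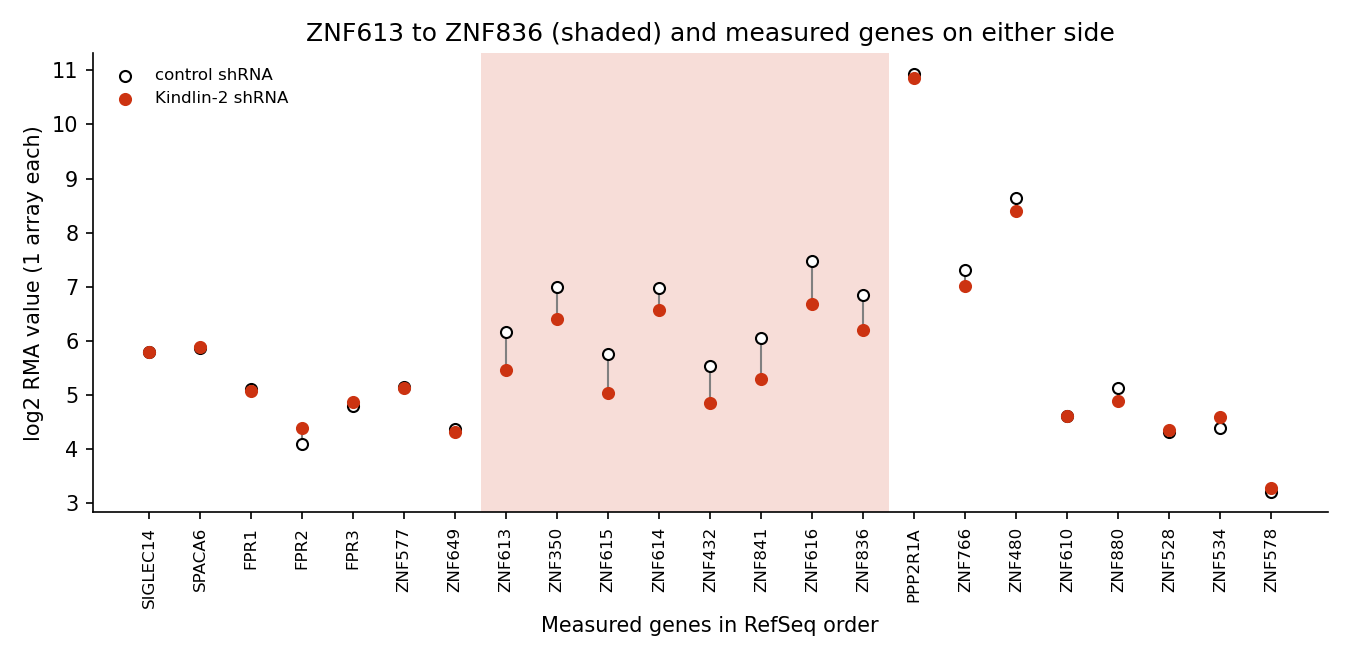
Log2 RMA values (y axis) of measured genes in RefSeq order (x axis) on the control array (open points) and the Kindlin-2 shRNA array (filled points), 1 array each, with ZNF613 to ZNF836 shaded. The filled point lies below the open one in all 8 shaded genes, with differences of -0.41 to -0.80, while PPP2R1A and most flanking genes nearly coincide.

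The promoters of the stretch are shown because its members differed together. RefSeq windows of GRCh38.p14 from 250 bases before to 50 bases after the start were used, with the first start listed for each gene. Capitals mark the letters GGGCGG, the GC box, and CCGGAAG, the core of ETS family sites, on either strand. They also mark TCCAATCAGG, which holds a CCAAT box, and CTGTCACTCAG. None of these 4 motifs contains another, and the last 2 were chosen from the members' own promoters, as the 10-letter and the 11-letter word held by most members among words in under 1% of all promoters. The windows lie at chr19:51927222-51927521 on the plus strand (ZNF613), chr19:52008162-52008461 on the minus strand (ZNF615), chr19:52095716-52096015 on the minus strand (ZNF841) and chr19:52139889-52140188 on the minus strand (ZNF616).
ZNF613: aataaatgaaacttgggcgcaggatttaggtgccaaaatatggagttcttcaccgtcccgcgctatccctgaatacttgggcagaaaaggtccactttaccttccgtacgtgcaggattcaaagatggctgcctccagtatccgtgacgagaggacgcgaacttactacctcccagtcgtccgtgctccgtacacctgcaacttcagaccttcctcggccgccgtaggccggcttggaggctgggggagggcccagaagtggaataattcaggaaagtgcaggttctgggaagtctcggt
ZNF615: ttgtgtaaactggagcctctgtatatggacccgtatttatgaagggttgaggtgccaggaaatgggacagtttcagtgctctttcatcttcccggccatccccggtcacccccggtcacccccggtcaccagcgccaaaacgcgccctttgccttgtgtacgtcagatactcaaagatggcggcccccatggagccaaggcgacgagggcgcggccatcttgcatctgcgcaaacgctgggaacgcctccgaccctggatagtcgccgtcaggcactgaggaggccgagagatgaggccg
ZNF841: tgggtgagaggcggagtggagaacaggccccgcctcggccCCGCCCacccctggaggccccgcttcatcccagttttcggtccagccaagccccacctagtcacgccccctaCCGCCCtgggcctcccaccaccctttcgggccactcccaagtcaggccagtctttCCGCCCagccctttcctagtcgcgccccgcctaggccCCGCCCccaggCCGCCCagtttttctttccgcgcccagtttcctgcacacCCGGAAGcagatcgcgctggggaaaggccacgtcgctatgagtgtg
ZNF616: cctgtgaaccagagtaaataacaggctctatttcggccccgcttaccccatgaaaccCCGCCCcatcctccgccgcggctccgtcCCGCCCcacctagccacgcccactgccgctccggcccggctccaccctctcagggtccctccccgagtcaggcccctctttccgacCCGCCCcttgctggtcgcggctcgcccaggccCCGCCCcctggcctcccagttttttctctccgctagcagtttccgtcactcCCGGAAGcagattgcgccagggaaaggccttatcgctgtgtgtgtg
ZNF841 and ZNF616 both hold repeated GC boxes and an ETS core near the start, and their windows were 73.3% identical over a global alignment. ZNF613 and ZNF615 hold none of the marked letters in these windows. Over all 28 pairs of the 8 promoters the median identity was 46.9%. No unrelated promoters were aligned, so this value has no reference here. A GC box was present in 4 of the 8 windows, an ETS core in 3, and neither of the other motifs in any. None of the 4 motifs was present in all 8 windows.

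The run from ZNF101 to ZNF254 held the widest spread of differences, with an SD of 0.45 over its 34 members and values in both directions. From ZNF101 to ZNF626, in gene order, 10 of 11 members were below 0, with a median of -0.29. ZNF506, ZNF682, ZNF737 and ZNF626, the last in its brightest cluster alone, were each at least 1.5-fold lower there. ZNF682 and ZNF737 (4.11 and 4.76) are faint on both arrays. Of the 23 members after ZNF626, 9 were below 0 and 12 above, and the median was 0.03. This dividing point was placed after the values were seen. ZNF429, in the second stretch, was lower, and its neighbours gave mixed values. ZNF493, just before it, differed by 0.09 in its brightest cluster and by -0.60 in its other cluster, and ZNF100, just after it, by 0.22. ZNF93, which silences LINE-1 elements, read 3.996 and 4.286, and ZNF91, which silences SVA elements, 7.57 and 7.90. Their differences were -0.29 and -0.32.

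The same run held 4 of the 10 largest positive differences. ZNF492 was the only member at least 1.5-fold higher, by 1.78-fold, but at 3.97 and 3.14 it lay among the faintest members on both arrays. ZNF724 (6.78 and 6.32) was 1.37-fold higher, ZNF714 (7.11 and 6.66) 1.37-fold and ZNF738 (6.97 and 6.60) 1.29-fold. The promoters of ZNF626, ZNF714 and ZNF492 are printed to set a member that was lower beside 2 that were higher. They lie at chr19:20661522-20661821 on the minus strand (ZNF626), chr19:21081953-21082252 on the plus strand (ZNF714) and chr19:22634074-22634373 on the plus strand (ZNF492), with the same letters in capitals.
ZNF626: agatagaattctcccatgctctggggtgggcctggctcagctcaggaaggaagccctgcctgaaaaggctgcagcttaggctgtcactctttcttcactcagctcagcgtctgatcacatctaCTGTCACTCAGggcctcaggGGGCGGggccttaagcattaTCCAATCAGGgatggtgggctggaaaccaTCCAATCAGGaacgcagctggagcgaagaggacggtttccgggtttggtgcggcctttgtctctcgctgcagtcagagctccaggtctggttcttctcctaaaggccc
ZNF714: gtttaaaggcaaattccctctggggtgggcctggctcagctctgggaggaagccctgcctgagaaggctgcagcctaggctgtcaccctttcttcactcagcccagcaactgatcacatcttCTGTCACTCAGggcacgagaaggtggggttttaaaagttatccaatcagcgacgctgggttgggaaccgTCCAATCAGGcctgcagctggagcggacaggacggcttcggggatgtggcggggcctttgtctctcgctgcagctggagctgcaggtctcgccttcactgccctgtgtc
ZNF492: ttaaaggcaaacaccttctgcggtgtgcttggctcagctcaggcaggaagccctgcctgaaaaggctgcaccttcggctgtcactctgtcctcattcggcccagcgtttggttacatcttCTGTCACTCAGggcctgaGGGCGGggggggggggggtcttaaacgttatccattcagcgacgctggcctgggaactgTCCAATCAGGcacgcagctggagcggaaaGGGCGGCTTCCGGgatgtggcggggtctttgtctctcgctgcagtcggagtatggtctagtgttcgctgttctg
All of these hold TCCAATCAGG and CTGTCACTCAG, and ZNF626 and ZNF714 were 77.8% identical despite differences of -1.55 and 0.45. ZNF492 was 74.8% identical to ZNF626 and 78.6% to ZNF714. These genes were picked for their opposite differences, so the pairing is a description only. The ZNF626 difference is that of its brightest cluster, and its other cluster differed by 0.09.

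Those letters set this run apart from most other members. RefSeq promoters were found for 201 of the 234 members. TCCAATCAGG was in 25 of 27 promoters of the run from ZNF101 to ZNF254 and in 11 of 20 of the run from ZNF653 to ZNF791. It was in 0 promoters of the other 6 runs, and in 3 of 36 outside the runs. Over all members it was in 19.4%, against 0.388% of the 27305 promoters in the table. CTGTCACTCAG was in 13.9% of the members' promoters and 0.234% of all, within the same 2 runs. Both words were chosen as common among members and rare over all promoters, so these excesses over all promoters follow from the choice. The ETS core was in 43.8% of members, 35.8% of ZNF promoters elsewhere and 10.7% of all promoters, and the GC box in 68.2%, 59.6% and 44.6%. Members with and without each motif were compared by their medians. The 39 members with TCCAATCAGG had a median difference of -0.09 and the 162 without it -0.14. For CTGTCACTCAG the medians were -0.08 with (28 members, 60.7% below 0) and -0.14 without (173 members, 75.1% below 0). For the ETS core the medians were -0.12 with (88 members) and -0.15 without, and for the GC box -0.14 with (137 members) and -0.13 without. Members with at least the median number of 20 CpG dinucleotides had a median of -0.18 and the rest -0.10, beside median levels of 6.20 and 5.69. The part that level plays in this was not tested.

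The run from ZNF264 to ZNF446, near the end of the long arm, was lower over most of its length. Of 39 members 32 (82.1%) were below 0, with a median of -0.19. ZNF416 (6.64 and 7.29) was 1.57-fold lower. ZNF304, which recruits silencing to tumour suppressor genes in some carcinoma cells, read 6.23 and 6.86 and was 1.55-fold lower. ZNF805 (6.80 and 7.41, named after its value was seen) was 1.52-fold lower. ZNF671, often silenced by methylation in carcinomas, was 1.40-fold lower at 5.40 and 5.89. ZNF274, which binds the ends of other zinc finger genes and recruits SETDB1 to them, differed by -0.19, at 7.36 and 7.55. ZNF135 and ZNF154 differed by -0.12 and -0.03. Against this direction ZNF417 (6.84 and 6.33) was 1.42-fold higher and ZNF256 (4.81 and 4.42) 1.31-fold. Over the 9 measured genes inside this run that are not members, the median was 0.03. ZIK1 and several ZSCAN genes, zinc finger genes under other names, are among them. Inside other runs genes that are not members were few and lower in places. Medians were -0.34 (3 genes, ZNF653 to ZNF791) and -0.01 (4 genes, ZNF577 to ZNF331), and 1 gene between ZNF101 and ZNF254 differed by -0.49. From ZNF565 to ZNF573 the median was -0.27 over 3 genes, the zinc finger genes ZFP14, ZFP82 and ZFP30. Inside the run from ZNF317 to ZNF846 the median was 0.03 (3 genes), and 1 gene between ZNF542P and ZNF835, the zinc finger gene ZFP28, differed by -0.09.

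In the remaining runs ZNF420 alone passed 1.5-fold. The runs from ZNF317 to ZNF846 (88.9%) and ZNF283 to ZNF180 (88.2%) had the largest shares of members below 0 of any run. In the run from ZNF283 to ZNF180, 15 of 17 members were below 0, with a median of -0.14. Its lowest and highest differences were those of ZNF234 (-0.45) and ZNF235 (0.18), and ZNF224, a repressor of the aldolase A gene, differed by -0.13. The run from ZNF317 to ZNF846 had 8 of 9 members below 0 and a median of -0.15, with ZNF317 lowest (-0.45) and ZNF426 highest (0.07). The run from ZNF653 to ZNF791 had a median of -0.13 over 23 members. ZNF709 (3.46 and 4.04) was its lowest at -0.58, just short of 1.5-fold, and ZNF844 its highest at 0.37, and both are faint. In the run from ZNF565 to ZNF573, 20 of 26 members were below 0, with a median of -0.10 and ZNF569 highest at 0.19. The run from ZNF542P to ZNF835 was the only one with a median above 0, at 0.07 over 8 members, between ZNF71 (-0.23) and ZNF667 (0.22). The 40 members outside the runs had a median of -0.12, with 31 below 0.

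The brightest members differed by less than 1.5-fold. ZNF146, also called OZF, which consists of fingers with no KRAB domain, was the brightest at 9.87 and 9.78, a difference of 0.09. ZNF460 read 9.36 and 9.55, and ZNF358 8.97 and 9.39. ZNF257 read 9.14 and 9.10 in its brightest cluster but 3.15 and 3.33 in its other, so its level is uncertain. ZNF382, a KRAB repressor of NF-kB and AP-1 signalling genes, read 8.51 and 8.78, a difference of -0.27. Of these 5, ZNF358 differed most, by -0.42. Among members outside or between the runs, ZNF175, known to hold down HIV transcription in macrophages, was 1.30-fold higher (7.46 and 7.08), and ZNF536, a neuronal repressor, 1.33-fold higher at a faint 4.75 and 4.35. ZNF331, an imprinted gene, differed by -0.28 and ZNF816, the highest of its run, by 0.31.

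A gene's several clusters did not always give the same reading. Of 5 members with more than 1 cluster, ZNF626 and ZNF616 are described above. ZNF493 differed by 0.09 in its brightest cluster and by -0.60 in the other (5.04 and 5.64), and ZNF208 by 0.03 in its brightest and by -0.59 in its faintest. For ZNF257 the values were 0.05 and -0.18. The brightest cluster therefore gave the smaller difference in ZNF493, ZNF208 and ZNF257 and the larger one in ZNF626 and ZNF616. Levels disagreed as well. ZNF208 read 7.81 and 7.78 in its brightest cluster and 3.48 and 4.07 in its faintest, and the faint cluster of ZNF257 read 3.15 and 3.33.

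ZNF genes of other chromosomes served as the reference and leaned the same way. Of 248, 158 (63.7%) were below 0, with a median of -0.10, so the medians of both ZNF groups differed by only -0.03. At least 1.5-fold lower were 10 (4.03%) and higher 6 (2.42%), against 7.26% and 0.427% on chromosome 19. They are brighter, with a median level of 7.07 against 5.82. With the median of all genes of like brightness subtracted, the gap between the medians of both ZNF groups was -0.039. Some of the reference genes lie on chromosomes whose genes were shifted as a whole. The medians of genes that are not ZNF genes were -0.13 on chromosome 7, -0.19 on chromosome 9 and -0.13 on chromosome 12, but 0.15 on chromosome 20. The ZNF genes had medians of -0.25, -0.23 and -0.45 on the first 3 and 0.09 on chromosome 20, and the 60 of these 4 chromosomes together -0.22. The other 188 had a median of -0.08, with 112 (59.6%) below 0 and 74 above. By chromosome their medians ranged from -0.35 (chromosome 14, 3 genes) to 0.05 (chromosome 10, 16 genes). Genes of chromosomes 14 and 10 that are not ZNF genes had medians of 0. On chromosomes 8 and 16 the ZNF medians were -0.21 and -0.15, beside -0.03 and -0.01 for genes that are not ZNF genes. The genes of chromosome 19 that are not members had a median of -0.05, with 1.68% lower and 1.30% higher by 1.5-fold. Both shares are below the 3.81% and 3.77% of all genes. When the median of the 50 nearest measured genes that are not ZNF genes was subtracted from each gene, the members' median became -0.08 and the gap between the ZNF groups -0.0029. With no replicate, these data do not separate the chromosome 19 group from other ZNF genes by its median.

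Zinc finger genes with other names were counted from lists. Some of those of chromosome 19 lie inside the runs and were included above among the genes there that are not members. Of 15 such genes of chromosome 19, 13 were measured, 8 were below 0, and the median was -0.09. None passed 1.5-fold in either direction. Of 31 on other chromosomes 29 were measured and 23 (79.3%) were below 0, with a median of -0.22, and again none passed 1.5-fold. A number of the latter (the ZSCAN and ZKSCAN genes of chromosome 6) are neighbours and share their region. ZFP57, a KRAB gene of chromosome 6 that was 1.64-fold lower, was listed with the partners below and is not counted here. Of all genes 52% were below 0, 3.81% were 1.5-fold lower and 3.77% were 1.5-fold higher.

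The partners through which KRAB proteins silence DNA did not lean one way. Of 36 listed genes 34 were measured, 20 below 0 and 14 above, with a median of -0.03. TRIM28, the central corepressor, was bright and nearly equal on both arrays (10.14 and 10.11), and SETDB1 differed by -0.12. The DNA methyltransferase DNMT1 was 1.31-fold higher (9.84 and 9.46). At least 1.5-fold higher were HELLS, a chromatin remodeller needed for DNA methylation (8.17 and 7.34, 1.78-fold), and CHAF1B, a histone chaperone subunit of replicating chromatin (8.16 and 7.55, 1.52-fold). At least 1.5-fold lower were EHMT2, a histone methyltransferase also called G9a (8.22 and 8.82, 1.51-fold), and ZFP57, a KRAB protein of imprinted regions (5.26 and 5.97, 1.64-fold). ZFP57 was in this list although it is itself a KRAB zinc finger protein, and it is faint. The shares of 5.88% in each direction, with ZFP57 counted, stand beside 3.77% and 3.81% of all genes. EHMT2 was under the threshold in 4 of the alternative settings, and CHAF1B in 1.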

How the data were processed

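The authors deposited log2 values of 33297 transcript clusters from Affymetrix Human Gene 1.0 ST arrays. Per the submitters' processing notes the method was RMA (background correction, equalised arrays, probe summary) and the program Affymetrix Expression Console 1.4.1. The library file and the set of arrays normalised together are not stated in what was read here. No read depth applies, and the number of arrays (1 per group) limits the precision.

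Symbols came from GEO's platform annotation, 19460 clusters with 1 symbol, 1754 with several and 12083 with none. Of the first, 19429 were matched by Entrez ID to RefSeq of GRCh38.p14, which gave current names, chromosome and gene order. No source read here states the array's build, so RefSeq coordinates are printed for promoter windows only. All members counted, however faint. Counts, medians and folds were computed in Python 3.11.15 with pandas 2.3.3, and the counting was tested on simulated data. No test was run.

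Named were FERMT2, the 10 largest differences in each direction, the 5 brightest members, the lowest and highest member of each run, 15 members and 3 partners fixed by name (ZNF132 was not analysed here), and members of the partner and other zinc finger lists past 1.5-fold. PAX2, PDGFRB, ZNF805, ZNF302, ZNF737, ZNF611, the flanking genes and the members with several clusters were named after their values were seen. So were ZNF350, ZNF614 and ZNF836. Members and lists were chosen with earlier results of these data known. A planned description of protein domains was not made, because no protein table was used here. Alternatives covered thresholds, filters, normalisation, cluster choice, neighbours and brightness.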

Additional observations from a re-analysis of the deposited data

How the results depend on the processing

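The members' median of -0.13 stayed below 0 under every alternative run, between -0.08 (50 neighbours subtracted) and -0.19 (only genes whose higher value reached the table's median). The gap of -0.031 to other ZNF genes also stayed below 0 but changed in size: -0.062 and -0.071 with genes kept by their higher or their mean value, -0.0029 with neighbours subtracted, -0.081 with other genes of chromosome 19 as reference, and -0.056 without chromosomes 7, 9, 12 and 20. The count of 17 members at least 1.5-fold lower was 2 at 2-fold, 9 and 8 with the filters on the higher and the mean value, which keep 83 and 81 members, and 10 without ZNF613 to ZNF836. The count of 1 higher member was 0 at 2-fold and under both filters. Median, loess, quantile and brightness corrections left the lower count between 15 and 17. Leaving out ZNF613 to ZNF836 or chromosomes, and taking the dimmest cluster, were added after the data were seen. With the dimmest cluster ZNF626 changed sign, to 0.092. Of 385 values for 55 named genes under single-gene alternatives, 9 others crossed the 1.5-fold threshold. ZNF350 dropped under it when the median of all genes or of its brightness class was subtracted (-0.57 for each), and ZNF304 with neighbours subtracted (-0.58). No paired analysis was possible because each group holds 1 array. No replicate could be left out for the same reason.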

Other observations

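A further 10 transcript clusters name several ZNF genes, all of chromosome 19, and were left out of the counts above because their signal belongs to no single gene. Their median difference was 0.01, with 5 below 0 and 5 above. The brightest names 8 genes of the run from ZNF101 to ZNF254, ZNF208, ZNF43 and ZNF85 among them, and read 12.51 in the Kindlin-2 shRNA array and 12.26 in the control array, brighter than any member with a cluster of its own. A cluster of ZNF761, ZNF525, ZNF845 and ZNF765 read 10.04 and 9.87. The cluster of ZNF587B and ZNF814 (8.63 and 8.08) was 1.47-fold higher. Those of ZNF284 with ZNF223 (5.37 and 5.96) and of ZNF564 with ZNF490 (6.89 and 7.44) differed by -0.59 and -0.55. ZNF284 and ZNF564 also have clusters of their own, which differed by -0.20 and -0.13.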
